A study of Mus musculus with 6 samples.

Results

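In the authors' comparison of 5-hydroxymethylcytosine (5hmC) in the cerebellum of wildtype and rCGG mice, 8658 regions were listed as wildtype-specific, and 599 of them were wider than 2000 bp. These broad wildtype-specific regions are described here, against the other 8059 regions of the same list. They were chosen by width, which was set when the regions were called from the comparison of the genotypes, so their width is a description and not a finding. The share of the list that they make up was 6.92% (95% exact binomial interval 6.39% to 7.47%). They held 1.88 Mb of the 8.10 Mb that the list covers, or 23.2% of its bases. Both lists together hold 12969 regions.

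5hmC is made from 5-methylcytosine by the TET dioxygenases and is abundant in neurons, where it lies along the bodies of active genes and at enhancers. A stretch of raised 5hmC can be as short as a single regulatory element or run along part of a gene. In a capture assay a wide region is one in which enrichment was called without a break over several fragment lengths. Fragile X-associated tremor/ataxia syndrome (FXTAS) appears late in life in people whose FMR1 gene holds an expanded CGG repeat. The cerebellum and its Purkinje neurons are among the tissue and cells affected.

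The samples were cerebellar genomic DNA of 3 wildtype littermates and 3 rCGG mice, the latter with the genotype label FXTAS, all of strain C57BL/6 and 16 weeks of age. The construct that carries the repeat, the promoter that drives it and the animals' sex were not stated in the labels. DNA was from whole cerebellum, so a change in the 5hmC of cells cannot be told apart from a change in the mixture of cells. 5hmC was given an azide-modified glucose by a glucosyltransferase, coupled to biotin and pulled down on streptavidin beads. Which genes lie under the regions was not analysed, because an annotation of mm9, the build of the files, was not used here; positions below are mm9, counted from 1.

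No value per animal and no read depth was used here, so the spread between animals is unknown, and the unit of each test is the region. Both lists come from the same 6 animals and the same comparison. Neighbouring regions are not independent, and p-values over regions are therefore too small. They describe how the regions are arranged and not whether the lists would recur in other mice. Intervals are 95% exact (Clopper-Pearson) and cover counting error only.

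Broad regions had a median width of 2764 bp, with an interquartile range of 2288 to 3579 bp and a highest value of 8341 bp. The other regions of the list had a median of 663 bp. Most broad regions were of moderate length: 349 measured up to 3000 bp, 148 from there to 4000 bp, 54 up to 5000 bp and 48 more than 5000 bp. No gap in width sets them apart. The 3 narrowest members had 2001 bp each, at chr5:30106257-30108257, chr5:113121026-113123026 and chr11:94877311-94879311. Just outside the limit lay regions of 2000 bp at chr14:61318150-61320149, 1992 bp at chrX:7302865-7304856 and 1989 bp at chr5:124563236-124565224.

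The authors' score of a region, whose scale was not stated, comes from the same comparison and is given without a test. Its median was 70.95 in broad regions (interquartile range 57.88 to 93.1) and 62.02 in the others (55.04 to 73.9). A score of at least 100 was held by 112 broad regions (18.7%) and by 421 others (5.22%), and a score of at least 150 by 30 (5.01%) and 46 (0.571%). Broad regions supplied 36 of the 100 best-scored regions of the list. Within the broad set, width and score were weakly related (Spearman's rho = 0.21 over 599 regions, which share libraries and caller). The median score was 66.81 at 2000 to 3000 bp, 77.3 at 3000 to 4000 bp, 78.2 at 4000 to 5000 bp and 80.22 above 5000 bp. Just below the limit it was 64.16 at 1000 to 1500 bp and 65.26 at 1500 to 2000 bp, so no step lay at 2000 bp. The highest score of the list, 1545.97, was held by a region that was not broad. Over the whole list rho was 0.105.

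**Figure D1:**
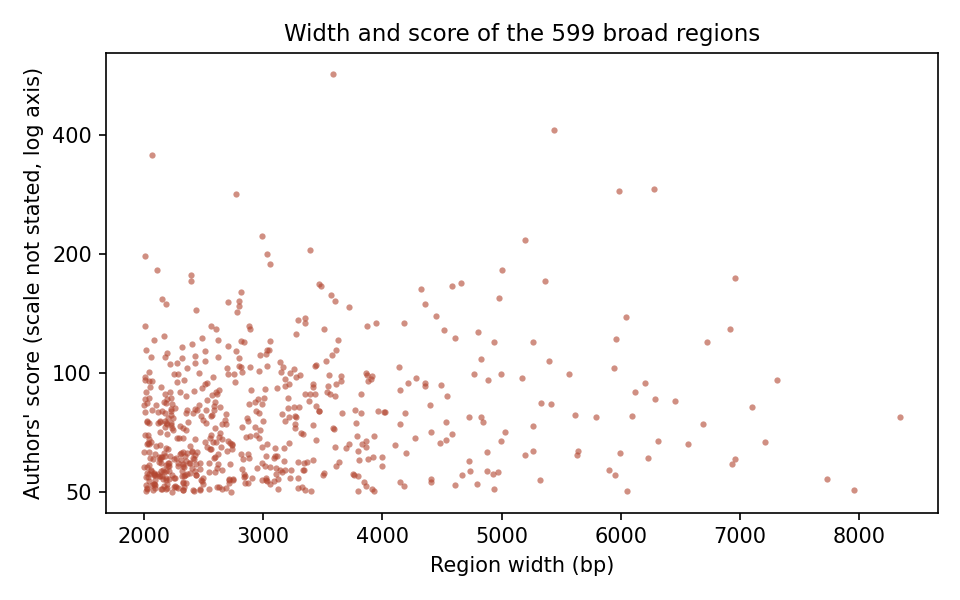
Width in bp (horizontal axis) and the authors' score (vertical log axis, scale not stated) of the 599 broad wildtype-specific regions, 1 point each. Regions crowd at widths under 3000 bp and scores under 100, and regions above 5000 bp spread from close to the lowest score of the set, 50.03, to 411.93, with a median of 80.22.

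Scores of the 10 widest regions ran from 50.58 to 173.95, with a median of 72.1 close to that of the broad set. The widest, chr5:115021880-115030220, had 8341 bp and a score of 77.51. Its nearest rCGG-specific region lay 1817 kb away, while 15 other wildtype-specific regions had their centre within 500 kb of its own. The region chr10:80605749-80613708, of 7960 bp, had a score of 50.58, and chr5:137959508-137967238, of 7731 bp, had 53.73. The latter was separated by 372 bp from another broad region, chr5:137955580-137959135, of 3556 bp and score 98.43. Together the pair spanned 11.7 kb. Ranks 4 to 10 in width measured from 6918 to 7315 bp. The highest scores among the 10 widest were 173.95, at chr10:126718028-126724988, 129.07, at chr5:143534506-143541423, and 95.78, at chr4:107299430-107306744. The other 4 of these ranks, chr10:127009841-127017053, chr10:59742423-59749521, chr2:93031277-93038231 and chr12:87441931-87448862, had scores from 58.62 to 82.14. Chromosome 10 thus held 4 of the 10 widest regions and chromosome 5 held 3. Of all 599 broad regions they held 35 and 46. The counts among the widest were noticed after the values were seen.

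None of the 10 best-scored broad regions was among the 10 widest, but 4 of them were wider than 5000 bp, a class of 48 of the 599 (8.01%). At the start of the chromosome 9 assembly, chr9:3024364-3027947 (3584 bp) had the highest score of a broad region, 569.83. A region 349 bp upstream of it, chr9:3021944-3024014 (2071 bp), had 355.17. Between them in score came chr7:52300781-52306218, with 5438 bp and 411.93. Chromosome 11, with 69 of the 599 broad regions, gave 3 of the 10. These were chr11:101024229-101030509 with 6281 bp and 291.02, chr11:96998024-97004005 with 5982 bp and 287.44, and chr11:82246631-82249659 with 3029 bp and 199.09. The other 4 lay at chr19:4148986-4151759, chr17:48003433-48006419, chr7:35986747-35991941 and chr7:51606990-51610381, with scores from 203.84 to 283.66. The chromosome 9 pair lay more than 10 Mb from the nearest rCGG-specific region, and 15 other wildtype-specific regions lay within 500 kb of each of the pair. Without the first 100 kb of the chromosome 9 assembly, the 599 broad and 8059 other regions became 597 and 8045. The neighbours of the pair were thus packed into that stretch. Whether the high scores there reflect 5hmC was not tested. When the first 100 kb of that assembly was left out, the 3 main spacing tests and the 5 chromosome calls below kept their calls; the other comparisons were not repeated without it.

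The broad share of the wildtype list differed between chromosomes. It was highest on chromosome 19, where 29 of 255 wildtype-specific regions were broad (11.4%, interval 7.75% to 15.9%), and on chromosome 11, with 69 of 663 (10.4%, 8.19% to 13.0%). It was lowest on chromosome 14, with 11 of 329 (3.34%, 1.68% to 5.90%), on X, with 2 of 55, and on chromosome 6, with 18 of 451 (3.99%, 2.38% to 6.23%). Of the 20 chromosomes tested against the rest of the list, 5 (25.0%) passed an adjusted p of 0.05 (Fisher's exact test, two-sided, Benjamini-Hochberg over 20 chromosomes). By that exact test chromosomes 11 and 19 were higher (adjusted p = 0.0115 and 0.0438), and chromosomes 1, 6 and 14 were lower (adjusted p = 0.0438 for each). Chromosome 1 held 21 broad regions among 502 (4.18%). Another 3 chromosomes had an unadjusted p under 0.05 in that test, chromosomes 4 and 15 with higher shares (9.05% and 9.70%) and chromosome 13 with a lower one (4.08%).

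Of these 5 calls, that of chromosome 11 held under all 5 alternatives run, and the others did not. Chromosome 11 was also the only 1 of the 5 still called when broad meant more than 3000 bp (5.13% against 2.70% elsewhere) or when only regions with a score of at least 75 were kept (20.8% against 11.8%). Over 3000 bp, chromosome 19 no longer had the higher share (2.75% against 2.89%).

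**Figure D2:**
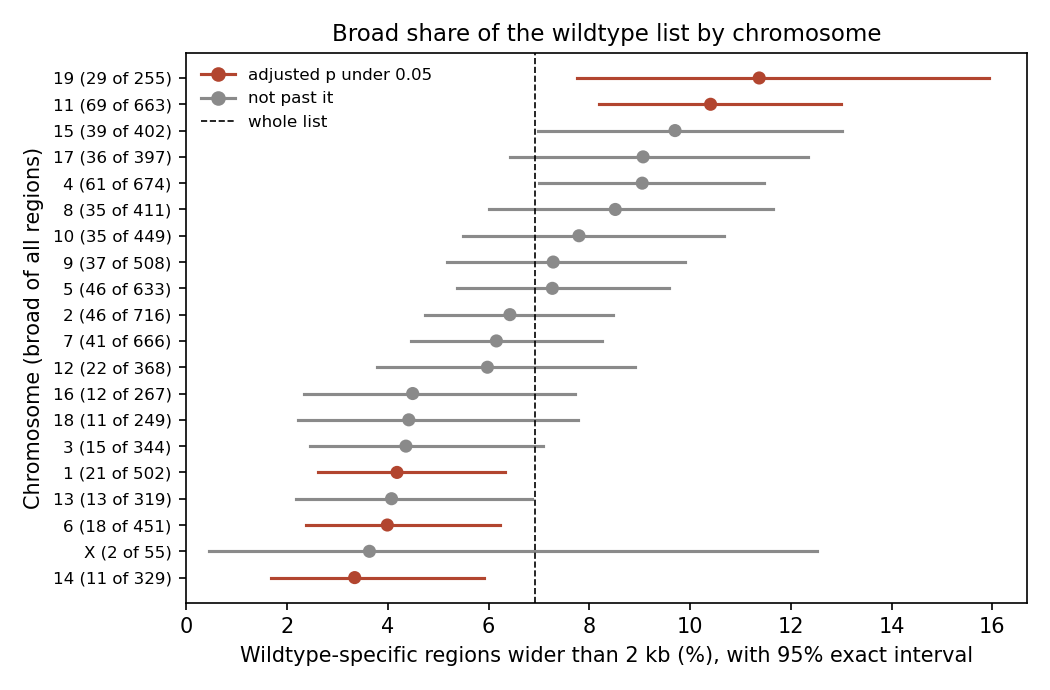
Share of wildtype-specific regions that are wider than 2 kb on each chromosome (horizontal axis, percent; points with 95% exact intervals), ordered by share, with the counts beside the chromosome names on the vertical axis. The dashed line marks the whole list at 6.92%; chromosomes 19 and 11 lie above it and chromosomes 1, 6 and 14 below it with an adjusted p under 0.05, drawn in red.

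Counted per Mb from the first to the last region of both lists on a chromosome, broad regions varied more than the others. Over the 19 autosomes their density differed 6.14-fold, with 0.0947 regions per Mb on chromosome 14 and 0.581 on chromosome 11 as the extremes. The density of the other wildtype-specific regions differed 2.28-fold, between chromosome 3 (2.20 per Mb) and chromosome 11 (5.00 per Mb). The counts of broad regions per chromosome are small, from 11 to 69 on autosomes, and their counting error widens their range. The median width of the broad regions of an autosome lay between 2234 bp on chromosome 16 and 3876 bp on chromosome 18.

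Broad regions were denser on gene-dense autosomes. Across the 19 autosomes, their density correlated with protein-coding genes per Mb at Pearson's r = 0.74 and Spearman's rho = 0.75. For the other wildtype-specific regions r was 0.84 and rho 0.86. The broad share of the list also followed gene density (r = 0.62, rho = 0.67). These are descriptions without a p. The points share the libraries and the caller, and gene counts come from the GRCm38 gene table of RefSeq, used per chromosome only. Genes per Mb were counted over the span from the first to the last protein-coding gene of a chromosome. Chromosome 7, the densest in genes with 14.0 per Mb, had a broad share of 6.16%, below that of the list, and without chromosomes 7 and 11 the share gave r = 0.72.

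Broad regions lay in neighbourhoods rich in wildtype-specific regions. Within 500 kb of the centre of a broad region there were 10.7 ± 5.32 other wildtype-specific regions (mean ± SD, n = 599 regions), against 7.38 ± 5.15 for the other regions (n = 8059 regions). The counts within 500 kb were not split by width among the others. The nearest wildtype-specific region was at a median of 22.15 kb from a broad region (interquartile range 7.17 to 53.7 kb) and at 40.9 kb (12.7 to 113 kb) from the others. Among the others the median was 27.1 kb at 1000 to 1500 bp and 23.3 kb at 1500 to 2000 bp, near that of broad regions. The nearest wildtype-specific region lay within 10 kb for 184 broad regions (30.7%, 27.0% to 34.6%) and for 1749 others (21.7%, 20.8% to 22.6%). The difference was 9.02 percentage points (Fisher's exact test, adjusted p = 7.49e-07 over 3 tests of spacing). On 14 of 19 autosomes the broad share was the higher. It was not particular to the broad set. Regions of 1000 to 2000 bp had such a neighbour in 32.8% of cases (505 of 1540), so that broad minus these regions gave -2.07 points (Fisher's exact test, adjusted p = 0.381). Within 1 Mb windows, compared over the 358 windows that held both kinds, the difference was 0.82 points (exact stratified test, adjusted p = 0.703). Where scores under 75 were dropped it was 2.23 points (Fisher's exact test, adjusted p = 0.221). Distances ran from edge to edge, so width itself brings a neighbour nearer. From centre to centre, 26.4% of broad and 20.3% of the other regions had such a neighbour. That difference was 6.04 points (Fisher's exact test, adjusted p = 0.000671).

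Broad regions also lay close to each other. The nearest wildtype-specific region was itself broad for 117 of the 599 (19.5%, 16.4% to 22.9%) and for 514 of the 8059 others (6.38%, 5.85% to 6.93%; Fisher's exact test, adjusted p = 3.96e-24). Against regions of 1000 to 2000 bp alone, of which 173 of 1540 (11.2%) had a broad nearest neighbour, the difference was 8.30 points (Fisher's exact test, adjusted p = 1.06e-06). Where scores under 75 were dropped, the shares were 17.8% and 12.6%. The difference then fell from 13.15 to 5.19 points (Fisher's exact test, adjusted p = 0.0212). Within 1 Mb windows the value was -5.26 points. A broad region cannot be its own neighbour, and 223 of the 361 windows with broad regions hold a single one, so a negative value is set largely by construction there and nothing is read from it. Another broad region lay within 100 kb of 206 broad regions (34.4%) and within 1 Mb of 466 (77.8%). For the others those shares were 13.5% and 49.8%.

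Runs in the strict sense were short. Of the 579 gaps between successive broad regions of a chromosome, 30 were under 10 kb and 17 of these under 2 kb, the smallest being 93 bp. They formed 26 pairs and 2 runs of 3. The run on chromosome 1, chr1:94739202-94755613, spanned 16.4 kb with members of 2508, 3403 and 4448 bp and scores of 106.85, 50.37 and 139.36. The run on chromosome 15, chr15:77591274-77606846, spanned 15.6 kb with members of 3862, 3027 and 3511 bp and scores of 100.07, 61.56 and 128.71. In both runs the middle member had the lowest score, and the nearest rCGG-specific region was more than 260 kb away.

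Broad regions occurred in 361 of the 1739 windows of 1 Mb that held a wildtype-specific region. A single broad region was present in 223 of these windows, and 63 windows held 3 or more, with 226 broad regions among them. Windows with 3 or more held on average 13.5 wildtype-specific and 1.08 rCGG-specific regions. Those with 1 or 2 held 9.02 and 2.04, and those with none held 3.71 and 2.34. The wildtype-specific counts include the broad regions by which the windows were grouped. Their rise is therefore partly set by the grouping, and nothing is read from it. The mean number of rCGG-specific regions was lower in windows with more broad regions, which was not tested. Of the 24 windows with 4 or more broad regions, 13 (54.2%) held no rCGG-specific region, against 276 of the 1378 windows with no broad region (20.0%), a difference that was not tested. Among all 1739 windows 365 held none. The share in windows with 1 to 3 broad regions was thus close to that in windows with no broad region. The higher share was seen in those 24 windows, and whether it extends to other windows with broad regions was not tested.

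The richest window was chr10:80000001-81000000, with 9 broad, 18 other wildtype-specific and 1 rCGG-specific region. The broad regions covered 38.2 kb of it. They measured from 2119 to 7960 bp, and their scores ran from 50.58 to 106.13. The members chr10:80510735-80513335 and chr10:80513451-80520012 were 115 bp apart, and chr10:80031418-80035411 and chr10:80035947-80038225 were 535 bp apart. The rCGG-specific region, chr10:80435704-80437318, had 1615 bp and lay between the fourth and the fifth broad region of the window. The window before it, chr10:79000001-80000000, held 5 broad, 12 other and 0 rCGG-specific regions.

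**Figure D3:**
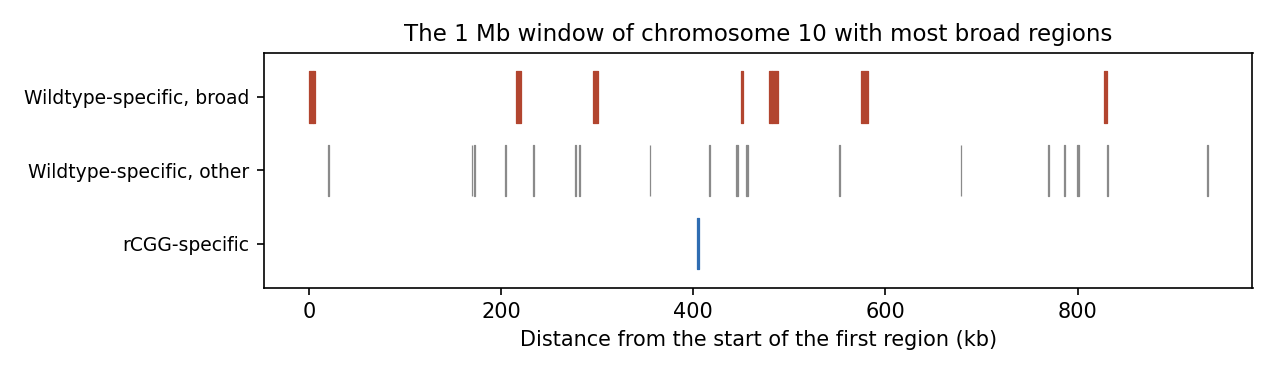
Regions of the 1 Mb window of chromosome 10 with most broad regions, drawn to scale by distance in kb from the start of the first region (horizontal axis), with broad and other wildtype-specific regions and rCGG-specific regions in separate rows. The 9 broad regions, some nearly touching, are spread over the window among 18 narrower ones, and a single rCGG-specific region lies near its middle.

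Next came chr19:5000001-6000000 with 6 broad, 15 other and 1 rCGG-specific region. Its broad members ran from 2021 to 5396 bp, and the widest, chr19:5742675-5748070, had a score of 107.16. The remaining windows of the 8 richest held 5 broad regions each. They were chr6:91000001-92000000, chr7:51000001-52000000, chr11:94000001-95000000, chr15:78000001-79000000 and chr17:27000001-28000000, besides that on chromosome 10. Of these 6 windows, that of chromosome 15 held 1 rCGG-specific region and the other 5 held 0. Chromosomes 6 and 7 had broad shares below that of the list and still held such a window.

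Broad wildtype-specific regions lay farther from rCGG-specific regions than the rest of their list did. The median distance was 272 kb (interquartile range 120 to 557 kb) for broad regions and 168 kb (65.2 to 378 kb) for the others. An rCGG-specific region lay within 100 kb of 119 broad regions (19.9%, 16.7% to 23.3%) and of 2806 others (34.8%, 33.8% to 35.9%). The difference was -14.95 percentage points (Fisher's exact test, adjusted p = 1.3e-14). The broad share was the lower on 18 of 19 autosomes. Chromosome 9 was the exception, with 37.8% against 31.0%. Within 10 kb the counts were 3 broad regions (0.501%, 0.103% to 1.46%) and 321 others (3.98%, 3.57% to 4.43%; Fisher's exact test, adjusted p = 4.18e-07). Within 500 kb of the centre, 178 broad regions (29.7%) and 1441 others (17.9%) had no rCGG-specific region.

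The difference in distance was smaller but present against the next narrower regions and within windows or chromosomes. None of these comparisons matched regions for width or score, and regions of 1000 to 2000 bp are still narrower than broad ones. Of wildtype-specific regions of 1000 to 2000 bp, 412 of 1540 (26.8%) had an rCGG-specific region within 100 kb. Against them the difference was -6.89 points (Fisher's exact test, adjusted p = 0.000826). Within 1 Mb windows it was -5.59 points (exact stratified test, adjusted p = 0.00178), and with chromosomes as strata -13.82 points (exact stratified test, adjusted p = 8.53e-13). The same comparison was made in the rCGG list. Of its 229 regions wider than 2000 bp, 130 (56.8%, 50.1% to 63.3%) had a wildtype-specific region within 100 kb, as did 2208 of its 4082 narrower ones (54.1%, 52.5% to 55.6%; Fisher's exact test, p = 0.454). The odds ratios of the lists, 0.464 and 1.11, differed (Zelen's exact test, p = 4.11e-07, with regions as the unit). That test takes the lists as independent, although both comparisons use distances between the same regions. The lists searched also differ in size, with 4311 rCGG-specific and 8658 wildtype-specific regions. A limit of 100 kb is therefore not equivalent in both.

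**Figure D4:**
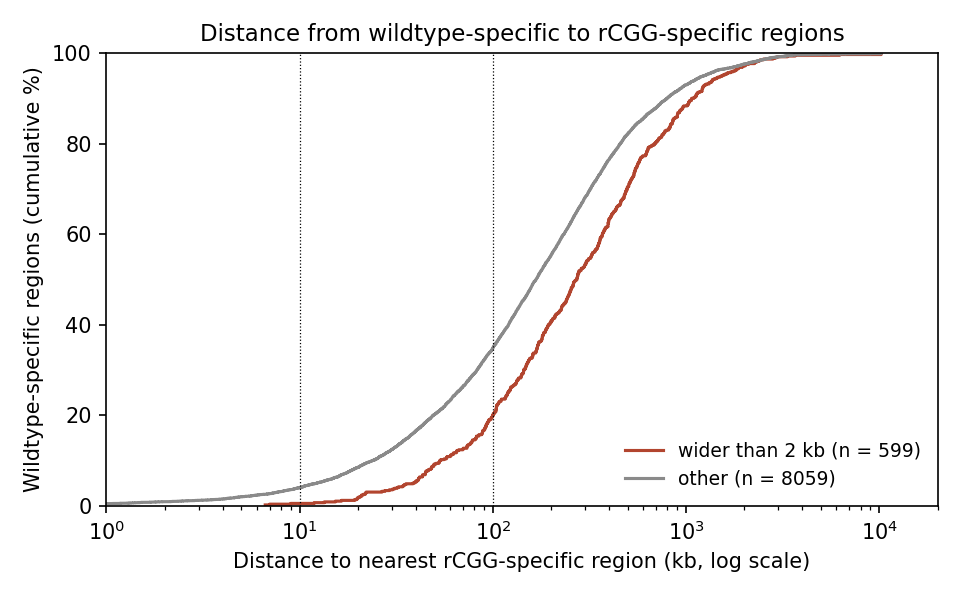
Cumulative share of wildtype-specific regions (vertical axis, percent) by distance from edge to edge to the nearest rCGG-specific region (horizontal log axis, kb), for 599 broad and 8059 other regions; dotted lines mark 10 and 100 kb. The curve of the broad regions runs to the right of the other, with 19.9% against 34.8% reached at 100 kb.

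Of the 5 broad regions closest to an rCGG-specific region, 3 measured up to 3000 bp, as did 58.3% of the whole set. At 6.64 kb lay chr8:13161154-13163203 (2050 bp, score 60.86), at 7.00 kb chr12:110848105-110850287 (2183 bp, 74.64) and at 8998 bp chr9:118602762-118604854 (2093 bp, 55.28). On chromosome 11, chr11:67999632-68004218 (4587 bp, 165.92) and chr11:5924429-5928010 (3582 bp, 72.42) followed at 11.9 and 13.4 kb. No broad region touched an rCGG-specific region, and how many of the other regions did was not counted. None of the 250 regions wider than 3000 bp had one within 10 kb. That share was low in the next narrower classes as well. It was 0.860% (3 of 349) at 2000 to 3000 bp and 1.08% (5 of 463) at 1500 to 2000 bp.

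The spacing changed gradually with width, with no step at 2000 bp. The share of regions with an rCGG-specific region within 100 kb fell from 39.0% up to 500 bp through 33.4% at 750 to 1000 bp and 25.7% at 1500 to 2000 bp. It was 22.3% at 2000 to 3000 bp, 15.5% at 3000 to 4000 bp, 24.1% at 4000 to 5000 bp (13 of 54) and 10.4% above 5000 bp (5 of 48). The intervals of the 3 widest classes overlap. The share with another wildtype-specific region within 10 kb rose from 16.4% in the narrowest class to 35.2% at 1500 to 2000 bp and was between 27.0% and 32.4% in the 4 broad classes. The share whose nearest wildtype-specific region was broad rose from 2.85% to 24.3% at 3000 to 4000 bp. In the 2 classes above 4000 bp it was 16.7% and 18.75%, with wide intervals.

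**Figure D5:**
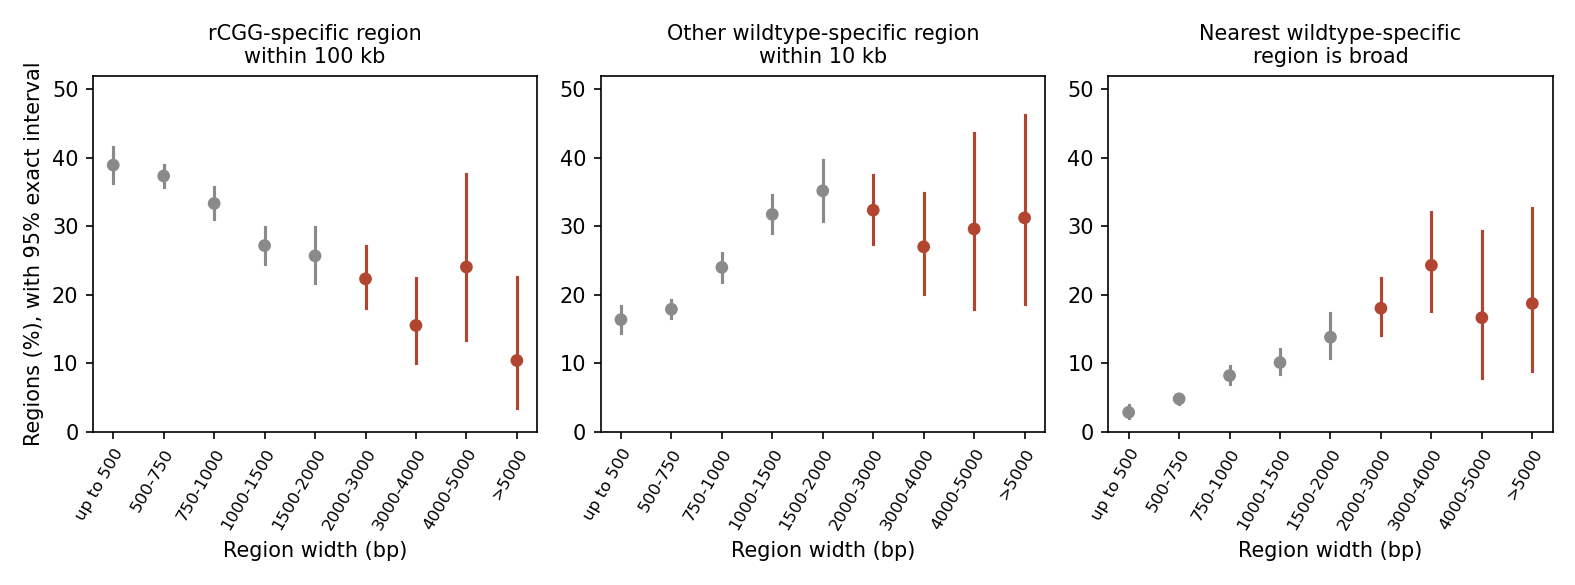
Shares of wildtype-specific regions by width class (horizontal axis, bp) with an rCGG-specific region within 100 kb, with another wildtype-specific region within 10 kb, and with a broad nearest neighbour (vertical axes, percent; points with 95% exact intervals; classes above 2000 bp in red). The first share falls from 39.0% to 10.4% from the narrowest to the widest class, the second lies between 27.0% and 35.2% above 1000 bp, and the third rises up to 3000 to 4000 bp.

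Some broad regions stood alone. The most isolated, chr9:68531093-68533678 (2586 bp, score 82.51), had its nearest wildtype-specific region 569.9 kb away, while an rCGG-specific region lay at 46.2 kb and 4 lay within 500 kb. It was followed by chr5:133009944-133013605 (3662 bp), chr16:94342558-94344639 (2082 bp), chr5:104891105-104893514 (2410 bp) and chr6:134197978-134200170 (2193 bp), at 310 to 419 kb from the nearest. For these 5 the nearest rCGG-specific region lay between 44.7 and 437 kb away.

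The X chromosome carried 2 broad regions, chrX:136965508-136968924 (3417 bp, score 60.33) and chrX:166426135-166428988 (2854 bp, score 68.88). Each had a narrower wildtype-specific region within 3 kb, at 2.54 and 2.77 kb, and their nearest rCGG-specific regions lay 3.67 and 6.23 Mb away. The broad share on X, 3.64% (interval 0.443% to 12.5%), did not pass the threshold (6.94% elsewhere; adjusted p of 0.692 by Fisher's exact test).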

How the data were processed

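5hmC was measured by chemical capture and sequencing in cerebella of 3 wildtype and 3 rCGG mice. The submitters' processing notes name Bowtie 0.12.9, HOMER and the build mm9; what each was used for was not given in the sources used here. Peak names are those of the caller MACS, per the deposited files; its settings and control, and any pooling of animals, were likewise not given. The authors deposited a list of regions per genotype with a score of unstated scale. A region was broad when its end minus its start exceeded 2000 bp. Distances were taken from edge to edge. Two-sided Fisher's exact tests compared shares, with p-values adjusted (Benjamini-Hochberg) over 20 chromosomes or over 3 spacing tests. Within chromosomes or 1 Mb windows, differences were weighted as by Mantel and Haenszel and tested by the exact conditional distribution of the summed counts; an alternative's p took the place of the main one in its family. Python 3.11.15, scipy 1.17.1 and statsmodels 0.14.6 were used, and code was tested on simulated data.

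The members and tests were chosen with earlier results of these data known. Regions named are the 10 widest, the 10 best scored, 3 on either side of the width limit, the 8 windows with most broad regions and the members of the first, runs of 3, the 5 closest to an rCGG-specific region, the 5 most isolated and those on X. Depth per sample is unknown. Gene features, gene lists and sequence content were not analysed, since no mm9 annotation or genome was used here.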

Additional observations from a re-analysis of the deposited data

How the results depend on the processing

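The distance to rCGG-specific regions kept its direction and call under 12 of 12 alternatives, from -17.90 to -3.48 points; the smallest was the 10 kb limit, where few regions qualify, and the 1 Mb limit gave -4.66. The broad nearest neighbour kept its direction and call in 9 of 10, from 5.19 to 16.97 points, the smallest at a score of at least 75. The other, 1 Mb windows, gave -5.26 points and is void, because a region is not its own neighbour and most such windows hold 1 broad region. The wildtype-specific neighbour within 10 kb kept its call in 7 of 10, was lost within 1 Mb windows (0.82 points) and at a score of at least 75 (2.23 points; fewer regions), and turned to -2.07 points against regions of 1000 to 2000 bp. Chromosomes called numbered 5, and 8 with broad as over 1500 bp, 1 with over 3000 bp, 3 after merging regions closer than 10 kb and 1 at a score of at least 75; the last 3 settings test fewer regions or broad regions. On chromosome 19 the difference from elsewhere, 4.59 points, became -0.15 over 3000 bp. Without chromosomes 7 and 11, the gene density relation gave r = 0.72 for the broad share and 0.79 for broad regions per Mb. Windows of 1 Mb as strata, the omission of the start of chromosome 9 and the contrast of broad neighbours with regions of 1000 to 2000 bp were added after seeing the data. Gene features and sequence content were not run. No paired analysis was possible because animals have no columns in either list, nor could any animal be left out.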
